A study of Rattus norvegicus with 16 samples.

Results

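Glucuronosyltransferases and sulfotransferases are the enzymes of conjugation, the step of hepatic metabolism that attaches a water-soluble group to a drug, pollutant, hormone or bile pigment so that it can leave in bile or urine. The members described here were 9 rat genes. They were Ugt1a1, Ugt1a7c, Ugt2b1, Ugt2b17, Sult1a1, Sult1b1, Sult1c3 and Sult1e1, and Ugdh, which makes the sugar donor of the first family. They were found by matching the RefSeq identifiers of the array probes to a gene table of the rat assembly GRCr8. Of the 9 genes, 6 had a probe, with 7 probes in all, and all 6 were among the 12072 genes or identifiers tested. The table lists Ugt2b17 as an older name of both Ugt2b1 and Ugt2b15, and since Ugt2b1 was already a member, the entry was read as Ugt2b15. Ugt1a1, Ugt1a7c and Sult1e1 matched no probe and were not analysed here.

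A glucuronosyltransferase (UGT) moves glucuronic acid from UDP-glucuronic acid to its substrate inside the endoplasmic reticulum. The UGT1A enzymes of rat liver conjugate bilirubin and planar phenols, and the UGT2B enzymes steroids and many phenols. A cytosolic sulfotransferase (SULT) moves a sulfonate group from the donor PAPS to phenols, steroids, thyroid hormones or hydroxyarylamines. Several genes of both families are textbook targets of the xenobiotic receptors AhR, CAR and PXR and of Nrf2 in liver.

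Liver RNA came from male Sprague-Dawley rat pups aged 21 days, in 4 groups, and each of the 4 arrays per group held the pooled RNA of 2 pups. Cross-fostered mixture pups (MM) were born to mixture-treated dams and raised by other dams of the same treatment. Mixture pups (M) stayed with their own dams, which had received 1 mg per kg per day of organochlorine pesticides, polychlorinated biphenyls and methylmercury in corn oil through gestation and lactation. Cross-fostered control pups (CC) were moved between control dams at birth, and control pups (C) were nursed by their birth dams, given corn oil alone. The pup RNA was labelled with Cy5 throughout, and a common reference RNA made from 14 rat cell lines with Cy3, with no dye swap. All MM and M arrays lay on slide 2 and all CC and C arrays on slide 1, so the mixture and the slide cannot be told apart, whereas CC with C and MM with M were compared on the same slide. The litter of origin of a pool is not given in the labels, and p-values measure the spread between these pools, some of which may share a litter.

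The values are log2 ratios of Cy5 over Cy3, so 1 unit is a doubling relative to the reference RNA. The ratio of 1 probe is not set against that of another. Per-array median intensity was 87 to 102 in Cy5 over a local background of 67 to 73, and 46.2% to 53.9% of spots per array had a Cy5 signal well above background. All 8 hepatocyte markers were measured, and 0 were called by limma in either mixture comparison, against 20.4% of all genes in M relative to C and 20% in MM relative to CC. Their median difference was -0.24 in M and 0.22 in MM, against -0.05 and -0.06 over all genes. The fit shares 1 spread per gene over all groups, and CC arrays varied widely. The SD of Alb was 0.88 in CC and 0.13 in C, and that of Fgb 1.09 and 0.13. The absence of calls thus does not show that these markers were level. Of 7 Kupffer cell and macrophage markers, limma called 1 in MM relative to CC and 0 in M relative to C. This was Marco, which fell by 0.93 in MM (limma adjusted p = 0.0291) and was at -0.61 in M. Of 3 measured cholangiocyte markers 1 was called, Epcam, higher by 0.42 in M and 0.64 in MM (limma adjusted p = 0.00156 and 5.52e-05). Its Cy3 differed by -0.59 and -0.61 and its Cy5 by -0.17 and 0.03. Krt19 was at -0.007 in M and -0.34 in MM, and Krt7 at 0.02 in both, without a call. The part of these cells in the results was not tested. The summed Cy5 signal of the hepatocyte markers was 1969320 to 2228794 on MM, 1894417 to 2247436 on M, 1878724 to 2275513 on CC and 2198868 to 2395601 on C arrays. The summed signal of the 4 measured skeletal muscle markers was 12348 and 12316 on the arrays CC 1 and CC 2, against 716 to 1019 on the other 14 arrays. The members' differences of MM from CC, and those of some other genes but not all, are therefore also given without these 2 arrays. The summed signal of the 2 measured exocrine pancreas markers reached 3284 in MM, 1705 in M, 12123 in CC and 320 in C, and its part in the results was not tested. Cyp1a1, an AhR target, had raw Cy5 intensities of 1852 to 2962 on MM and 1887 to 2746 on M arrays, against 125 to 147 on CC and 90.8 to 190 on C arrays. C 9 was the one array where its Cy5 was not well above background, but its Cy3 was not on any array, so its ratio has no measured reference signal. In Cy5 alone Cyp1a1 differed by 4.72 in M and 4.81 in MM (limma adjusted p = 2.42e-09 and 1.8e-09). Cyp2b2, a CAR target, rose in the ratio of its brighter probe by 2.76 ± 0.20 (log2, SE) in M relative to C and by 2.17 ± 0.20 in MM relative to CC. Without the arrays CC 1 and CC 2 the rise in MM was 1.91. The Cy3 signal of the brighter probe differed by 0.76 and 0.60 (limma adjusted p = 2.56e-07 and 3.53e-06) and its Cy5 signal by 3.51 and 2.77. The other Cyp2b2 probe gave ratio differences of 1.68 and 1.39, and the scanner software's log ratio 1.06 and 0.87.

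The sequences just before the start sites are shown for the 3 members that rose and for Ugt2b15, the relative of Ugt2b1 that did not pass, since all 4 genes lie on chromosome 14. They are RefSeq sequence of GRCr8, plus strand, up to 250 bases upstream of the start in the promoter table, with letters that matched a searched motif in capitals. The window of Ugdh, 212 bases, ends where the gene table starts its gene body, upstream of the start in the promoter table from which all positions are counted.
Ugt2b1, chr14:21378632-21378881: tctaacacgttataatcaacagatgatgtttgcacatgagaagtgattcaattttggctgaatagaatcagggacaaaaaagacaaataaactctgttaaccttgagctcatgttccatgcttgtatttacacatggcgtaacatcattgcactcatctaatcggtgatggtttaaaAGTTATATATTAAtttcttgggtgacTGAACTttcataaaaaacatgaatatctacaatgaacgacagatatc
Ugt2b15, chr14:21122616-21122865: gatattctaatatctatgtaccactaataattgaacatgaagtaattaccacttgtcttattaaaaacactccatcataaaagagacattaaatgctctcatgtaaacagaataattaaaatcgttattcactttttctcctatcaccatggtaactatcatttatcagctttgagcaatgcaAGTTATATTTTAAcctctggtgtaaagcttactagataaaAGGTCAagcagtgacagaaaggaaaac
Ugdh, chr14:43202268-43202479: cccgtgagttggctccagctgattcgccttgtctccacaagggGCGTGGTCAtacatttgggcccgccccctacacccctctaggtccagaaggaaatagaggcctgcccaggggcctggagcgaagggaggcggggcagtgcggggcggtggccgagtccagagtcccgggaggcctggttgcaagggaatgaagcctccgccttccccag
Sult1b1, chr14:20771667-20771916: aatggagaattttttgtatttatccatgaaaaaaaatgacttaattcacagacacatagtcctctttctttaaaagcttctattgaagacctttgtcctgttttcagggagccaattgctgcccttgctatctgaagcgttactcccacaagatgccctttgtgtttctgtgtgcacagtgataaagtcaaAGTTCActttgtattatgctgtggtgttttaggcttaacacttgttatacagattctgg

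The capitals of both Ugt2b windows include the AT-rich run AGTTATANNTTAA, at bases -73 to -61 before the start of Ugt2b1 and -67 to -55 before that of Ugt2b15. It is the stretch of 13 bases of Ugt2b1 whose closest stretches in the other Ugt2b promoters differed at the fewest positions, the 2 written N, taking the one nearest the start where several did. The search was chosen after these sequences had been read. The run was written from the letters shared by all 7 Ugt2b promoters of the table. Its presence in 7 of 7 was therefore fixed in advance. On either strand it occurred in 13 of 27457 promoters in all (0.0473%), these 7 included. The 7 Ugt2b genes that share it include Ugt2b1, which rose, and Ugt2b10 and Ugt2b37, which did not pass. The capitals of Ugdh are GCGTG, the core bound by the AhR, at -207 to -203, overlapped by TGACNNNGC on the minus strand, the core of the antioxidant response element, at -207 to -199. GCGTG occurred in 27.2% and TGACNNNGC in 10.2% of all promoters. The nuclear receptor half-site variant AGTTCA was at -59 to -54 in Sult1b1 and on the minus strand at -47 to -42 in Ugt2b1, and it occurred in 12.1% of promoters. The half-site AGGTCA was at -27 to -22 in Ugt2b15 and occurred in 13.7%. All motifs were searched on both strands, and a match describes letters only.

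Comparison of M with C set mixture pups against control pups without cross-fostering, on different slides. Of the 6 measured members, 3 rose and 0 fell by limma (adjusted p below 0.05), against 20.4% of all genes called in either direction and 8.19% called higher. The genes that rose were Ugt2b1, Ugdh and Sult1b1. The members' median difference was 0.34, against -0.05 over all genes. In MM relative to CC, the same comparison among cross-fostered pups, 2 rose and 0 fell, against 20% of all genes called in either direction and 7.83% called higher. These were Ugt2b1 and Ugdh, and the members' median difference was 0.16, against -0.06 over all genes. The ratios of M and C arrays did not overlap for 4 of 6 members (25.1% of all genes), and those of MM and CC arrays for 2 of 6 (21.9%).

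**Figure D1:**
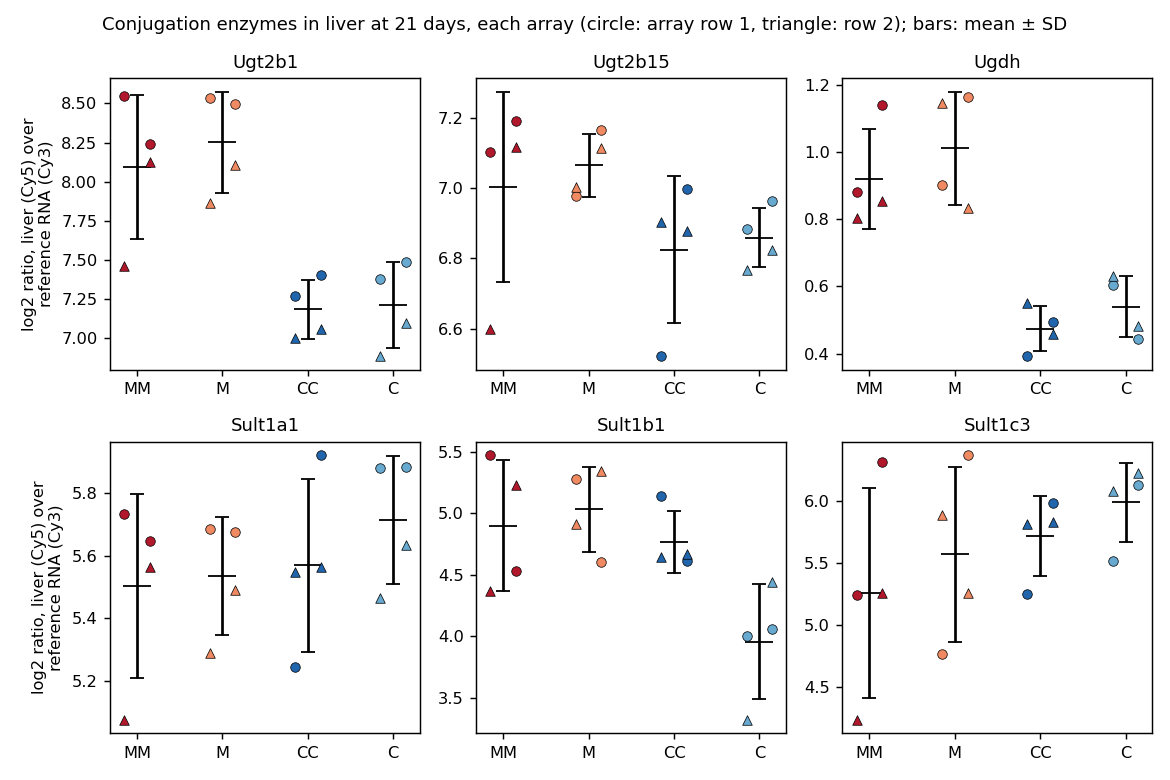
Log2 ratio of liver over reference RNA (y axis) on each array for the 6 measured members, by group, with mean and SD of 4 arrays. Circles are arrays of slide row 1 and triangles of row 2. The MM and M arrays of Ugdh (0.80 to 1.16) all lie above the CC and C arrays (0.39 to 0.63), and those of Ugt2b1 (7.46 to 8.55) lie above all CC arrays (up to 7.40), with 1 MM array just below the highest C array (7.48).

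Ugt2b1 conjugates phenols and steroids in rat liver and is known there as a gene raised by phenobarbital. Its ratios were 8.54, 8.50, 7.86 and 8.11 on the M arrays, against 7.48, 7.38, 6.88 and 7.09 on the C arrays. Every M array was above every C array. The difference was 1.04 ± 0.21 (log2, SE, n = 4 arrays per group, limma adjusted p = 0.00214), a fold of 2.06. The MM arrays had 8.55, 8.24, 7.46 and 8.12, against 7.27, 7.40, 7.0 and 7.06 on the CC arrays. These groups did not overlap either, although MM 3 at 7.46 lay only just above CC 2 at 7.40. The difference was 0.91 ± 0.21 (limma adjusted p = 0.00558), a fold of 1.88. Without CC 1 and CC 2 it was 1.07 (adjusted p = 0.017).

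The 2 channels of Ugt2b1 both differed between M and C arrays. Its raw Cy5 intensity was 9991 to 17929 on M arrays, against 3906 to 6628 on C arrays. Its raw Cy3 intensity, which holds no pup RNA, was 91.5 to 113 on M arrays, against 63.2 to 74.8 on C arrays. On MM arrays the raw Cy3 was 81.25 to 97.5. It was 109 on CC 1, above all MM arrays, and 64.75 to 66.25 on the other CC arrays, below all MM arrays. After normalization of both channels together the Cy5 signal alone differed by 1.27 ± 0.20 (limma adjusted p = 0.00275) and the Cy3 signal by 0.23 (adjusted p = 0.0176). In MM relative to CC the Cy5 signal differed by 1.04 ± 0.20 (limma adjusted p = 0.00976) and the Cy3 signal by 0.13 (adjusted p = 0.148). The liver signal of Ugt2b1 thus differed by more than its reference signal in both comparisons. Within slide row 1 the ratio differed by 1.09 between M and C and by 1.06 between MM and CC, and within row 2 by 1.0 and 0.76. With the scanner software's own log ratio the difference was 0.44 between M and C (limma adjusted p = 0.0838) and 0.65 between MM and CC (adjusted p = 0.0171).

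Ugdh encodes UDP-glucose dehydrogenase, which oxidises UDP-glucose to UDP-glucuronic acid and so supplies the enzymes that use this donor. Its ratios were 0.90, 1.16, 1.15 and 0.83 on the M arrays, against 0.44, 0.60, 0.63 and 0.48 on the C arrays. The lowest M array was above the highest C array. The difference was 0.47 ± 0.09 (limma adjusted p = 0.0019), a fold of 1.39. The MM arrays had 0.88, 1.14, 0.80 and 0.86, against 0.39, 0.50, 0.55 and 0.46 on the CC arrays. The difference of 0.45 ± 0.09 (limma adjusted p = 0.00309), a fold of 1.36, was close in size to that in pups kept with their own dams. Without CC 1 and CC 2 it was 0.42 (adjusted p = 0.0339).

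The reference signal of Ugdh was nearly level between the slides. Its Cy3 differed by -0.02 between M and C and by -0.01 between MM and CC, with adjusted p of 0.596 and 0.734 by limma. Its Cy5 signal alone differed by 0.45 (limma adjusted p = 0.0126) and 0.43 (0.015). Within slide rows 1 and 2 the ratio differed by 0.51 and 0.43 between M and C and by 0.57 and 0.33 between MM and CC. With median centring in place of loess, which moved the median of all genes to -0.19 in MM relative to CC, Ugdh was at 0.27 there and no longer passed (limma adjusted p = 0.0874).

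**Figure D2:**
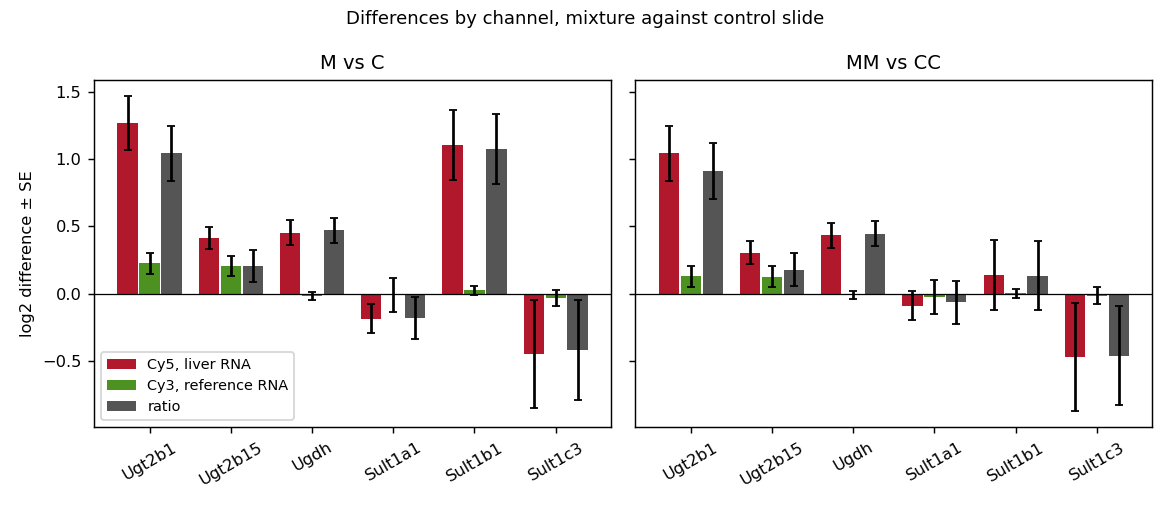
Log2 difference (y axis, ± SE) of the 6 members in the liver channel (Cy5), the reference channel (Cy3) and the ratio, for M minus C and MM minus CC. The Cy3 bars of Ugt2b1 and Ugt2b15 stand at 0.23 and 0.21 in M minus C, while those of Ugdh, Sult1a1, Sult1b1 and Sult1c3 lie between -0.03 and 0.03.

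Ugt2b15 is the rat enzyme of the family known for conjugating testosterone and related steroids. Its ratios were 6.98, 7.17, 7.0 and 7.11 on the M arrays, against 6.96, 6.88, 6.77 and 6.82 on the C arrays. The groups did not overlap, but the nearest arrays, M 5 at 6.98 and C 9 at 6.96, were close. The difference of 0.21 ± 0.12 did not pass (limma adjusted p = 0.254). The MM arrays had 7.10, 7.19, 6.60 and 7.12, against 6.52, 7.0, 6.90 and 6.88 on the CC arrays, and the difference was 0.18 ± 0.12 (adjusted p = 0.33) and 0.11 without CC 1 and CC 2. MM 3 was the lowest of its group, and without it the difference was 0.31 and passed (limma adjusted p = 0.0397).

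Both channels of Ugt2b15 were on average higher on the mixture slide. The Cy5 signal alone differed by 0.41 ± 0.08 between M and C (limma adjusted p = 0.013) and by 0.31 ± 0.08 between MM and CC (adjusted p = 0.0629). The Cy3 signal differed by 0.21 (limma adjusted p = 0.0234) and by 0.13 (adjusted p = 0.146). With Ugt2b15 counted, 4 of 6 members rose in Cy5 alone in M relative to C, against 3.26% of all genes called there in either direction and 2.14% called higher. In MM relative to CC the count was 2 of 6, against 2.86% in either direction and 2.15% called higher. In the reference channel 2 of 6 members, Ugt2b1 and Ugt2b15, were called between M and C arrays, against 65.5% of all genes. Between MM and CC arrays 0 of 6 were called there by limma, against 66.5% of all genes. For both genes CC 1 had the highest raw Cy3 of the CC arrays, which widens the spread of that group. The raw Cy3 of Ugt2b15 was 391 on CC 1 and 239 to 253 on the other CC arrays, against 307.5 to 339 on MM arrays. The absence of a call therefore does not show a level reference signal. The part of the slide in these results was not tested.

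Sult1b1 sulfonates thyroid hormones and small phenols. It was measured by 2 probes. The brighter one had ratios of 5.28, 4.60, 4.91 and 5.34 on the M arrays, against 4.06, 4.0, 3.32 and 4.44 on the C arrays. Every M array was above every C array, the nearest being M 6 at 4.60 and C 12 at 4.44. The difference was 1.08 ± 0.26 (limma adjusted p = 0.00795), a fold of 2.11. The other probe gave 1.1 (limma adjusted p over all probes = 0.00563). The reference signal differed by 0.03 and the Cy5 signal alone by 1.1 ± 0.26 (limma adjusted p = 0.029). Within slide rows 1 and 2 the ratio differed by 0.91 and 1.24.

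Among cross-fostered pups Sult1b1 did not pass. The MM arrays had 5.47, 4.53, 4.36 and 5.23, against 5.14, 4.61, 4.64 and 4.67 on the CC arrays. The MM arrays lay on both sides of the CC arrays, and the difference was 0.13 ± 0.26 (95% interval -0.41 to 0.68, limma adjusted p = 0.762). It was 0.24 without CC 1 and CC 2, and 0.27 with the other probe. The means were 4.90 ± 0.54 in MM, 5.03 ± 0.34 in M, 4.76 ± 0.25 in CC and 3.95 ± 0.47 in C (SD, n = 4 each). The ranges of MM, M and CC overlapped one another. All C arrays lay below all M and CC arrays, and MM 3 at 4.36 lay below the highest C array at 4.44.

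Comparison of CC with C, and of MM with M, addressed what cross-fostering changed at the same treatment. In CC relative to C 0 of 6 members were called by limma and 0% of all genes, with 1 member and 336 genes (2.78%) at an unadjusted p below 0.05. That member was Sult1b1, higher in CC by 0.81 ± 0.26 (95% interval 0.26 to 1.36, unadjusted p = 0.00644, limma adjusted p = 1), a fold of 1.75. Its CC and C arrays did not overlap, as for 2.2% of all genes. The other probe gave 0.73. Leaving out 1 array at a time moved the difference between 0.60 and 0.97, and without CC 1 and CC 2 it was 0.70. This comparison lies within slide 1, and the reference signal of the probe differed by 0.01.

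**Figure D3:**
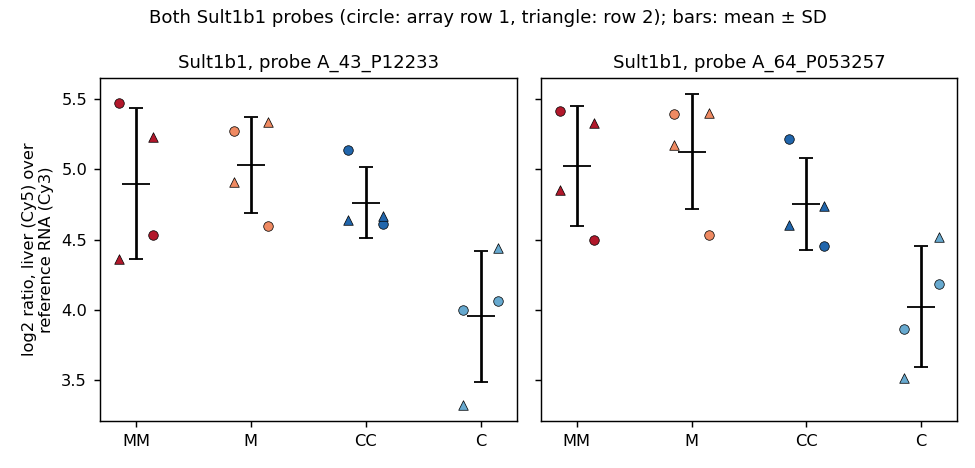
Log2 ratio of Sult1b1 over reference RNA (y axis) on each array by group for its 2 probes, with mean and SD of 4 arrays. In both panels all C arrays lie below all M arrays. In the left panel they (3.32 to 4.44) also lie below all CC arrays and the MM arrays (4.36 to 5.47) extend past both ends of the CC arrays (4.61 to 5.14), while in the right panel the highest C array, at 4.52, lies above the lowest MM array at 4.5 and the lowest CC array at 4.46.

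The difference of MM from CC minus that of M from C was tested as an interaction. For Sult1b1 it was -0.94 ± 0.37 (95% interval -1.72 to -0.17, unadjusted p = 0.0203, limma adjusted p = 1), -0.83 with the other probe and -0.83 without CC 1 and CC 2. It did not pass over all genes. Limma called 0 of 6 members and 0% of all genes in the interaction, with 1 member and 349 genes (2.89%) at an unadjusted p below 0.05. For Ugt2b1 the interaction was -0.13 ± 0.29 (95% interval -0.75 to 0.49) and for Ugdh -0.03 ± 0.13 (-0.30 to 0.25).

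In MM relative to M 0 of 6 members were called by limma and 0% of all genes, with 0 members and 275 genes (2.28%) at an unadjusted p below 0.05. No member's arrays were fully apart, as was the case for 1.28% of all genes. The differences were -0.16 ± 0.21 for Ugt2b1, -0.09 ± 0.09 for Ugdh, -0.13 ± 0.26 for Sult1b1 and -0.06 ± 0.12 for Ugt2b15. In CC relative to C the differences of Ugt2b1, Ugdh and Ugt2b15 were -0.03 ± 0.21, -0.07 ± 0.09 and -0.03 ± 0.12. Without CC 1 and CC 2 they were -0.18, -0.03 and 0.03. The 95% intervals of Ugt2b1 ran from -0.60 to 0.28 in MM relative to M and from -0.46 to 0.41 in CC relative to C.

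**Figure D4:**
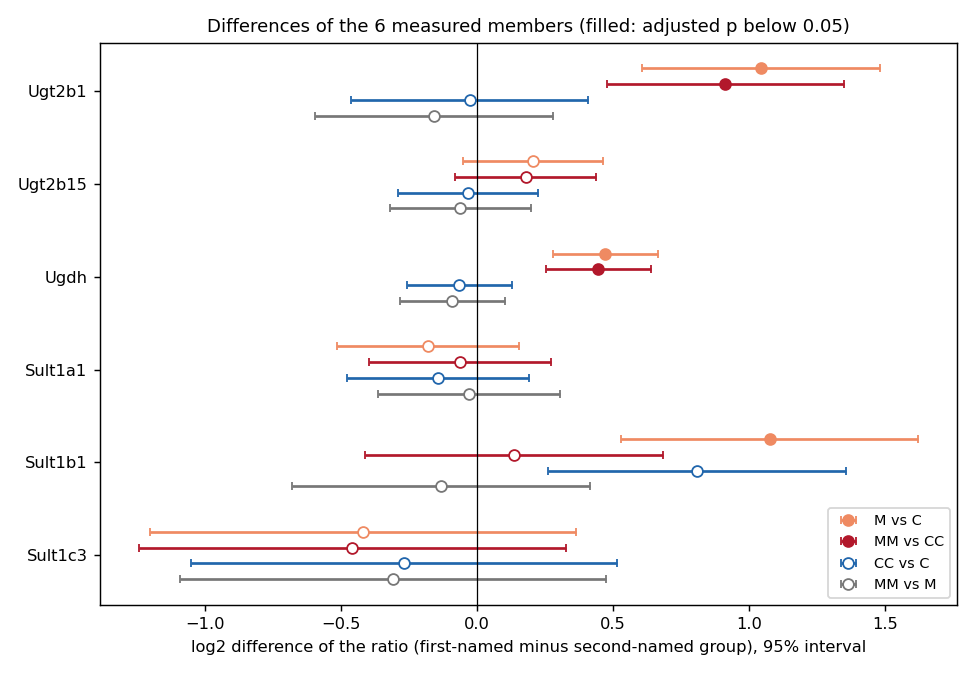
Log2 difference of the ratio (x axis, first-named minus second-named group) with its 95% interval for the 6 members in 4 comparisons. Filled points passed limma at an adjusted p below 0.05: Ugt2b1 and Ugdh in both mixture comparisons and Sult1b1 in M vs C at 1.08.

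The phenol sulfotransferase Sult1a1 did not pass in any comparison. Its ratios were 5.69, 5.68, 5.29 and 5.49 on the M arrays, against 5.88, 5.88, 5.46 and 5.63 on the C arrays, a difference of -0.18 ± 0.16 (limma adjusted p = 0.459). The MM arrays had 5.73, 5.65, 5.08 and 5.56, against 5.24, 5.92, 5.55 and 5.56 on the CC arrays, a difference of -0.06 ± 0.16 (adjusted p = 0.817). The 95% intervals were -0.51 to 0.16 and -0.40 to 0.27, and the difference of MM from CC was -0.05 without CC 1 and CC 2. The low ratio of CC 1 came with the highest Cy3 signal of the probe: 1656 on CC 1, against 863 to 889 on the other CC arrays, while its Cy5 signal of 25074 was the highest of the CC group.

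Sult1c3 encodes a hydroxyarylamine sulfotransferase that in rat liver is known as higher in males. Its ratios were 4.76, 6.37, 5.89 and 5.26 on the M arrays, against 6.14, 5.52, 6.08 and 6.23 on the C arrays. The M arrays spread over more than the whole range of the C arrays, and the difference was -0.42 ± 0.37 (limma adjusted p = 0.461). The MM arrays had 5.24, 6.32, 4.23 and 5.26, against 5.25, 5.99, 5.82 and 5.83 on the CC arrays, with a difference of -0.46 ± 0.37 (adjusted p = 0.413). The SD was 0.85 in MM and 0.71 in M, against 0.32 in CC and 0.32 in C. Its Cy3 signal was weak, at 43.8 to 67 raw units on all arrays, and was well above background on 2 of the 4 arrays of each group. The 95% intervals were wide, at -1.20 to 0.36 and -1.24 to 0.32, and the difference of MM from CC was -0.56 without CC 1 and CC 2. It was -0.12 without MM 3, -0.81 without MM 2, 0.16 within slide row 1 and -1.08 within row 2, so its sign was not settled. Between M and C it was -0.26 within row 1 and -0.58 within row 2.

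Deviations of the members from their group means were related across the 16 arrays in different ways. As a description over arrays that share slide and row, Pearson's r of these deviations was 0.83 between Ugt2b1 and Sult1a1, 0.84 between Ugt2b15 and Sult1a1, and 0.73 between Ugdh and Sult1c3. Between Ugt2b1 and Ugdh it was 0.03, and between Ugdh and Sult1b1 -0.58. Ugt2b1 was lower in row 2 than in row 1 by a mean of -0.37 on slide 1 and -0.57 on slide 2, and Sult1a1 by -0.18 and -0.33. The genes whose ratio over all 16 arrays was most like that of Ugt2b1 were Psap (r = 0.964), Lamp1 (0.964) and Pccb (0.961). For Ugdh they were Nfx1 (0.938), Taok1 (0.934) and Kif1c (0.934). These correlations include the difference between the slides.

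The UGT1A members could not be followed by probes of their own. Ugt1a1, the bilirubin enzyme, and Ugt1a7c lie on chromosome 9 of GRCr8 in a cluster of 8 protein-coding Ugt1a genes that all end at the same base, 96256264, and differ in where they start. Of these 8 genes, 2 had probes, Ugt1a6 and Ugt1a9. The files do not give the probe sequences, so which exon a Ugt1a6 probe lies in is not known here. Ugt1a6 conjugates small planar phenols and is a textbook AhR target. The ratios of its brighter probe were 4.49, 4.41, 4.27 and 4.09 on the M arrays, against 3.78, 3.03, 3.20 and 3.09 on the C arrays. They were 4.53, 4.49, 3.76 and 3.96 on the MM arrays, against 3.21, 3.47, 3.14 and 3.05 on the CC arrays. Neither pair of groups overlapped. Ugt1a6 rose by 1.04 ± 0.18 in M relative to C (limma adjusted p = 0.000928) and by 0.96 ± 0.18 in MM relative to CC (adjusted p = 0.00175), and by 1.09 without CC 1 and CC 2 (adjusted p = 0.00802).

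The second Ugt1a6 probe rose by more in the ratio, by 1.35 and 1.37 in the same order. Its raw reference signal was lower on the mixture slide, at 571 to 596 on MM, 550 to 618 on M, 741 to 888 on CC and 719 to 788 on C arrays. In Cy5 alone the brighter probe differed by 0.76 (limma adjusted p = 0.0182) between M and C and by 0.69 (adjusted p = 0.0314) between MM and CC. Ugt1a9 was at 0.19 ± 0.12 (limma adjusted p = 0.292) and 0.22 ± 0.12 (adjusted p = 0.212).

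The other genes of the pathways were counted from lists of named genes. Of 18 other genes with a Ugt symbol, 6 were tested, 1 rose and 0 fell in M relative to C, and 2 rose and 0 fell in MM relative to CC. Over all genes 20.4% and 20% were called, 8.19% and 7.83% higher. The list's median difference was 0.49 and 0.35, against -0.05 and -0.06 over all genes. Besides Ugt1a6, the second to rise in MM was Ugt2a3, at 1.66 ± 0.55 (limma adjusted p = 0.0432), whose groups overlapped and whose Cy5 signal alone differed by 1.40 without a call. The ratio was at 1.12 ± 0.55 in M relative to C (adjusted p = 0.165). The call of Ugt2a3 was lost without any one of CC 1, CC 2, CC 4, MM 1, MM 2 or MM 4, at 1.64, 1.65, 1.29, 1.74, 1.68 and 1.32 (limma adjusted p from 0.0607 to 0.132), and without CC 1 and CC 2 together (adjusted p = 0.158). Ugt2b35 had a Cy5 difference of 0.71 in M and 0.74 in MM that passed in that channel (limma adjusted p = 0.003 and 0.00227), but its Cy3 differed by 0.58 and 0.48 and its ratio by 0.13 and 0.27 without a call. Ugt2b37 and Ugt2b10 were at 0.66 ± 0.28 and 0.32 ± 0.25 in M, without a call.

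Of 14 other sulfotransferases, 7 were tested, with 1 rising and 1 falling in M relative to C and 1 rising and 0 falling in MM relative to CC. The share called, 2 of 7 and 1 of 7, stands beside 20.4% and 20% of all genes. The list's median was 0.08 and 0.16, against -0.05 and -0.06 over all genes. Sult2a6, a hydroxysteroid sulfotransferase, fell by 0.67 on the log2 scale in M (SE 0.20, limma adjusted p = 0.0229) and was at -0.41 ± 0.20 in MM (adjusted p = 0.157). The fall no longer passed without C 9, C 10 or M 5, at -0.63, -0.66 and -0.66 (limma adjusted p from 0.0505 to 0.0624), and the MM difference passed at -0.70 without CC 1 (adjusted p = 4.73e-05) and at -0.64 without CC 1 and CC 2 (0.000555). Its Cy3 differed by 0.46 in M and 0.09 in MM, and in Cy5 alone it was at -0.21 and -0.32 without a call. Tpst1, a Golgi enzyme that sulfonates protein tyrosines, rose in the ratio by 0.33 and 0.44, but its Cy3 differed by -0.54 and -0.56, and in Cy5 alone it was at -0.21 and -0.12. The M difference of Tpst1 no longer passed at 0.28, 0.32 and 0.31 when M 7, C 9 or C 12 was left out, nor did the MM difference, 0.32, without CC 1 and CC 2.

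**Figure D5:**
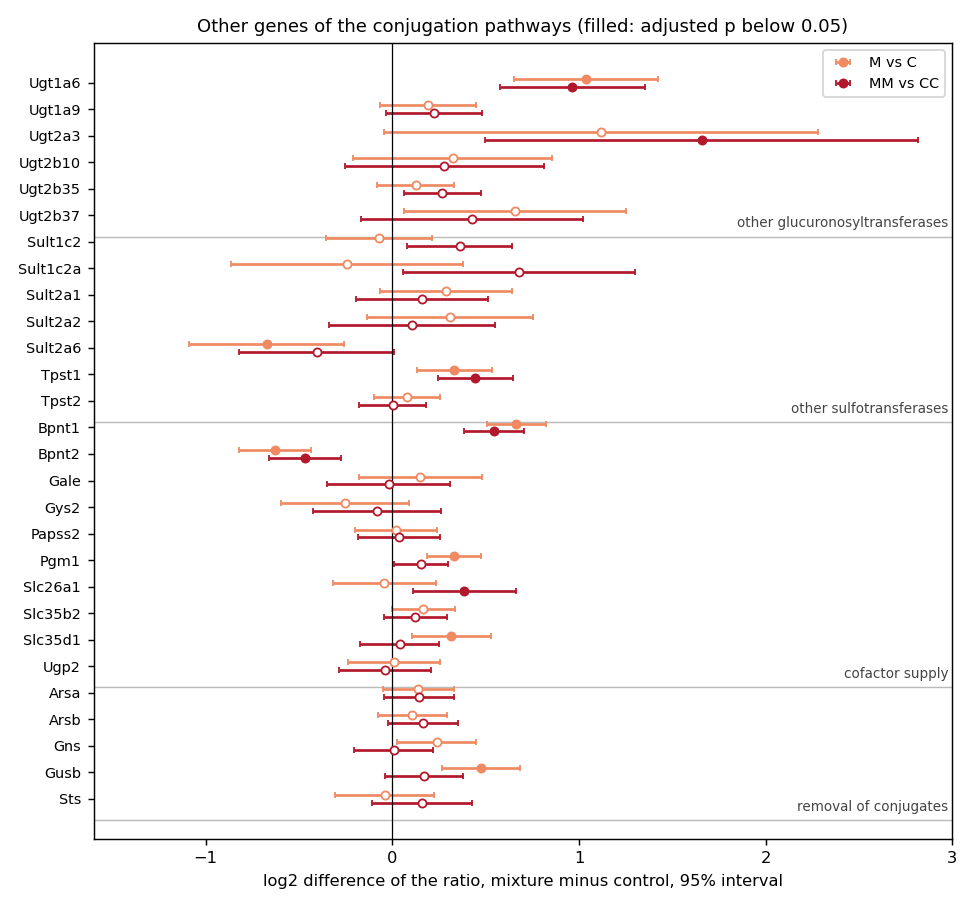
Log2 difference of the ratio (x axis, mixture minus control) with its 95% interval for 28 other genes of the conjugation pathways, in M vs C and MM vs CC. Filled points passed limma at an adjusted p below 0.05. Ugt1a6 and Bpnt1 stand to the right of 0 in both comparisons, and Bpnt2 to the left.

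The supply of both donors was covered by 10 tested genes of 14 named. In M relative to C 3 rose and 1 fell, and in MM relative to CC 2 rose and 1 fell, against 20.4% and 20% of all genes called in either direction. The list medians were 0.09 and 0.04, against -0.05 and -0.06 over all genes. Bpnt1 encodes a cytosolic phosphatase that removes PAP, the product left when PAPS has given up its sulfonate. It rose by 0.66 ± 0.08 in M (limma adjusted p = 2.03e-05) and by 0.54 ± 0.08 in MM (adjusted p = 0.000151, or 0.00216 at 0.53 without CC 1 and CC 2), with Cy3 differences of -0.21 and -0.24. In Cy5 alone it passed in M at 0.45 (limma adjusted p = 0.00863) but not in MM at 0.31 (adjusted p = 0.0715). Bpnt2, the Golgi counterpart, fell in the ratio at -0.63 and -0.47, but its Cy3 differed by 0.54 and 0.57, and in Cy5 alone it was at -0.09 and 0.10. Papss2, which makes PAPS, was at 0.02 ± 0.10 and 0.04 ± 0.10, and Ugp2, which makes UDP-glucose, at 0.01 ± 0.12 and -0.04 ± 0.12.

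Pgm1, a phosphoglucomutase upstream of UDP-glucose, rose by 0.33 ± 0.07 in M (limma adjusted p = 0.003) and was at 0.15 ± 0.07 in MM (adjusted p = 0.127). Slc35d1, which carries UDP-glucuronic acid into the endoplasmic reticulum, rose by 0.32 ± 0.10 in M (limma adjusted p = 0.0335) and was at 0.04 ± 0.10 in MM (adjusted p = 0.825). Its call was lost without any one of C 10, C 11, C 12, M 5, M 6 or M 8, at 0.34, 0.23, 0.33, 0.33, 0.26 and 0.31. The sulfate transporter Slc26a1 rose by 0.38 ± 0.13 in MM (limma adjusted p = 0.047) and was at -0.04 ± 0.13 in M. Its call was lost without any one of CC 1, CC 3, MM 1, MM 2, MM 3 or MM 4, at 0.21, 0.40, 0.36, 0.38, 0.39 and 0.41, and it was at 0.26 without CC 1 and CC 2. Neither Pgm1, Slc35d1 nor Slc26a1 passed in Cy5 alone.

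Of 7 genes that remove conjugates, 5 were tested. In M relative to C 1 rose and 0 fell, and in MM relative to CC 0 were called by limma, against 20.4% and 20% of all genes. Gusb, the lysosomal glucuronidase, rose by 0.47 ± 0.10 in M (limma adjusted p = 0.00301) and was at 0.17 ± 0.10 in MM (adjusted p = 0.241), with Cy3 differences of -0.34 and -0.35 and Cy5 differences of 0.14 and -0.17 without a call. Without MM 3 the MM difference of Gusb was 0.28 and passed (limma adjusted p = 0.0193). Of 13 regulators named, 10 were tested, and Keap1, the cytosolic inhibitor of Nrf2, was the one called in either comparison, against 20.4% and 20% of all genes. Its ratio was higher by 0.33 in M and 0.42 in MM, but its Cy3 differed by -0.47 and -0.42 and its Cy5 by -0.13 and 0.00. Ahr was at 0.35 ± 0.13 and 0.21 ± 0.13, Nr1i3 (CAR) at 0.35 ± 0.29 and 0.30 ± 0.29, Nr1i2 (PXR) at -0.12 ± 0.13 and -0.06 ± 0.13, and Nfe2l2 (Nrf2) at 0.16 ± 0.12 and 0.27 ± 0.12, in M and MM, without a call.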

How the data were processed

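Agilent Feature Extraction 11.0.1.1 read the scans, per the file headers. For every spot the authors deposited median intensities of signal and background in Cy5 and Cy3, and that software's log10 ratio of Cy5 over Cy3. The authors' deposited values also include log2 ratios per probe (medians per array -0.049 to -0.037, normalization not given in the sources used here), whose correlation with the ratios computed here was 0.996 to 0.997.

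Spots marked as outliers (1.32% to 1.85%) were left out. Background was corrected by normexp (offset 50), log2 ratios were normalized within arrays by loess, with the 4259 control spots at weight 0, and replicate spots were averaged. Probes well above background in Cy5 on at least 3 of the 4 arrays of 1 group were kept, 13262 of 30367, and the brightest kept probe stood for a gene. For Cy5 or Cy3 alone, Aquantile followed loess, and each channel was taken from the normalized ratio and mean intensity. These Cy5 values are therefore not free of the reference channel, and Cy5 minus Cy3 differences equal those of the ratio. Cy5 with quantile normalization was normalized without the Cy3 intensities. Limma 3.58.1 (R 4.3.3, with version 1.17.8 of data.table and 2.0.0 of jsonlite) fitted a mean per group over the 16 arrays, with 12 residual and 3.95 prior degrees of freedom. P-values were two-sided and Benjamini-Hochberg adjusted over 12072 genes. On simulated data of that size for M vs C, 95% of 100 genes with a 2-fold change and 64% of 100 with a 1.5-fold change were recovered, and 3.64% of calls were false. The simulation drew independent noise around a mean per gene shared by all groups, with no difference between slides. In the measured arrays the slide goes with the mixture, and 20.4% of genes were called between M and C. The simulated share of false calls therefore does not measure that of the reported calls. The number of arrays limits the precision.

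All members were named, other pathway genes where called in a mixture comparison or where they serve the donor or regulator steps (chosen after their values were seen), and the 3 genes most like each member called in both mixture comparisons. Members, lists and markers were chosen with earlier results of these data known. Alternatives were the background correction, normalization, source of the ratio, channel, filter, probe choice, slide row, samples in the fit, variance trend, replicate block and leaving out arrays.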

Additional observations from a re-analysis of the deposited data

Results flagged for a closer look

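Among 52 sets of 4 arrays, 1 for each group and each probe of the members and of the genes set beside them, 3 held an array that stood apart by Dixon's criterion, a gap to the nearest array that is large against the range. Chance alone marks about 1 in 20 such sets. Sult1b1 was at 5.14 on CC 1, against 4.61 to 4.67 on the other CC arrays, a gap of 0.889 of the range. CC 1 is 1 of the 2 arrays with raised muscle markers. Ugt2b15 was at 6.60 on MM 3, against 7.10 to 7.19 on the other MM arrays (0.852). Cyp1a1 was at 6.43 on M 7, against 6.73 to 6.76 on the other M arrays (0.909), and its reference signal was not well above background on any array.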

How the results depend on the processing

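The count of members called in M relative to C was 3, and 1 of them passed with the arrays of slide row 1 alone and 1 with those of row 2 alone. In MM relative to CC the count was 2, and it was 1 with median centring, 1 in row 1 and 0 in row 2. The row fits hold 2 arrays per group. Leaving out 1 array at a time gave 3 members each time in M relative to C and 2 to 3 in MM relative to CC, and 0 in the other comparisons. With the replicate number as a block, 2 members passed in MM relative to CC and 2000 genes, against 2419 without it, and of the genes named the block ended the calls of Ugt2a3, Slc26a1 and Tpst1 (limma adjusted p = 0.081, 0.129 and 0.0509). MM and CC share replicate numbers, but across genes the deviations of same-numbered arrays correlated at 0.339, 0.057, 0.186 and 0.107, so the numbers were not taken as pairs.

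The calls between M and C and between MM and CC over all genes were 2459 and 2419. They were 3503 and 4936 with median centring, 4024 and 3957 with the scanner log ratio, 393 and 345 in Cy5 alone, 272 and 310 in Cy5 with quantile normalization, 837 and 591 in row 1, and 705 and 1210 in row 2. MM relative to CC gave 1547 with only those groups fitted and 1465 without CC 1 and CC 2 (chosen after seeing the data). Of the calls, 40.2% and 39.1% were higher, against 30.8% and 17.6% with median centring, 65.6% and 75.4% in Cy5 alone, 73.5% and 82.9% in Cy5 with quantile normalization, and, for MM relative to CC, 50.2% with quantile normalization of the ratios and 52% with the authors' deposited log2 ratios. In row 1 alone CC relative to C gave 24 calls, MM relative to M 1 and the interaction 19, and these 3 gave 0 in the other settings run.

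Ugt2b15 passed in M relative to C at 0.30 with quantile normalization of the ratios and at 0.44 in Cy5 with quantile normalization, and in MM relative to CC at 0.34 in the last. Of the pathway genes called in the ratio, 3 changed sign in Cy5 alone: Bpnt2 in MM to 0.10 and, with quantile normalization, 0.14, Keap1 in M to -0.13 and -0.068, and Tpst1 to -0.21 and -0.16 in M and -0.12 and -0.042 in MM. The cause was not tested.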
